A study of Mus musculus with 6 samples.

Results

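Expression was examined for 9 mouse genes of the epithelial basement membrane, namely the laminin chain genes Lama5, Lamb1, Lamb2 and Lamc1, the nidogen genes Nid1 and Nid2, the heparan sulfate proteoglycan genes Hspg2 (perlecan) and Agrn (agrin), and Dag1, which encodes the receptor dystroglycan. They were taken as a named family, with no threshold on their values, and are 9 of the 20848 genes measured. A gene's value on an array was the mean of the log2 signals of the probe sets that the platform's probe table assigns to that gene alone, 358 probe sets in all. Lamb1 is listed there under its older symbol Lamb1-1 and was matched through the synonym.

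The cells were EpH4, a mouse mammary epithelial line that forms polarised monolayers. All cultures were held confluent for 7 days, so that tight junctions were in place, and then spent 24 hours in serum-free medium. The vehicle group (3 samples) received no TGF-β3 and the TGF-β3 group (3 samples) received 1 ng/ml of this secreted growth factor. Every sample was RNA pooled from 3 wells and hybridised to 1 array, and there were 3 experiments; same-numbered samples of the groups were treated as pairs.

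Basement membranes are thin sheets of matrix on which epithelia rest. Laminins, each made of an alpha, a beta and a gamma chain, polymerise on the cell surface, and nidogens and perlecan tie the laminin layer to the collagen IV network. Dystroglycan and integrins anchor laminin to the cell, and in mammary epithelium these contacts are known for supporting polarity and milk gene expression, while TGF-β is a known inducer of matrix genes in many cell types. The comparison asks whether transcripts of these components differed after the treatment.

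Median log2 signals of the arrays were 6.56 to 6.64. Gene signals were compressed on the vehicle 3 array, with an SD of 1.58 across genes where the other 5 arrays had 1.68 to 1.74. Relative to each gene's own mean over the 6 arrays, the 20% brightest genes lay at a median of -0.147 there and the 20% dimmest at 0.123, against -0.055 to 0.042 on the other arrays. As a coarse check of the labelled cell type, the mean signal of 12 epithelial markers lay between 9.37 and 9.49 on the 6 arrays. The means were 6.82 to 7.09 for 7 fibroblast, 6.20 to 6.31 for 6 basal or myoepithelial, 5.96 to 6.19 for 6 macrophage, 5.69 to 5.83 for 7 luminal, 5.08 to 5.24 for 4 adipocyte and 5.02 to 5.25 for 6 endothelial markers. Signals depend on the probes, so the order of these lists does not give the share of any cell type. No marker passed the test (0 in each list). Of the 6 macrophage markers 3 were higher and 3 lower with TGF-β3, with a median difference of 0.006. They ran from -0.22 for Ptprc to 0.36 for Csf1r (SE 0.15, adjusted p = 0.684 in limma), both named after their values were seen. The part of other cells in the results was not tested. In RNA of whole cultures, fewer cells of a type and less RNA per cell cannot be told apart.

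None of the 9 genes changed past the threshold. In limma's test of TGF-β3 against vehicle, with Benjamini-Hochberg adjustment over all genes, 0 of the 9 had an adjusted p under 0.05, where 0% of all genes passed, and 0 of the 9 had an unadjusted p under 0.05, against 5.16% of all genes. In the paired fit, which adds the numbers as a block, 0 of the 9 passed, beside 0.00959% of all genes, and 0 of the 9 had an unadjusted p under 0.05, beside 12.2% of all genes. The means of 6 genes were higher and of 3 lower with TGF-β3 (52.8% of all genes were higher). Their differences ran from -0.11 for Lama5 to 0.16 for Dag1 with a median of 0.017, beside a median of 0.011 over all genes. After quantile normalization the median of the 9 was -0.025 and that of all genes -0.009. The 95% intervals, from the fit without a block, lay between -0.33 and 0.37, which is 0.793-fold to 1.29-fold. Of the 9, 0 reached 1.5-fold in either direction. The groups overlapped in all 9 genes, whereas they did not overlap in 12.9% of all genes. Of the 9, 3 were higher in 3 of 3 pairs (24.0% of all genes) and 1 was lower in 3 of 3 pairs (18.0% of all genes).

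**Figure D1:**
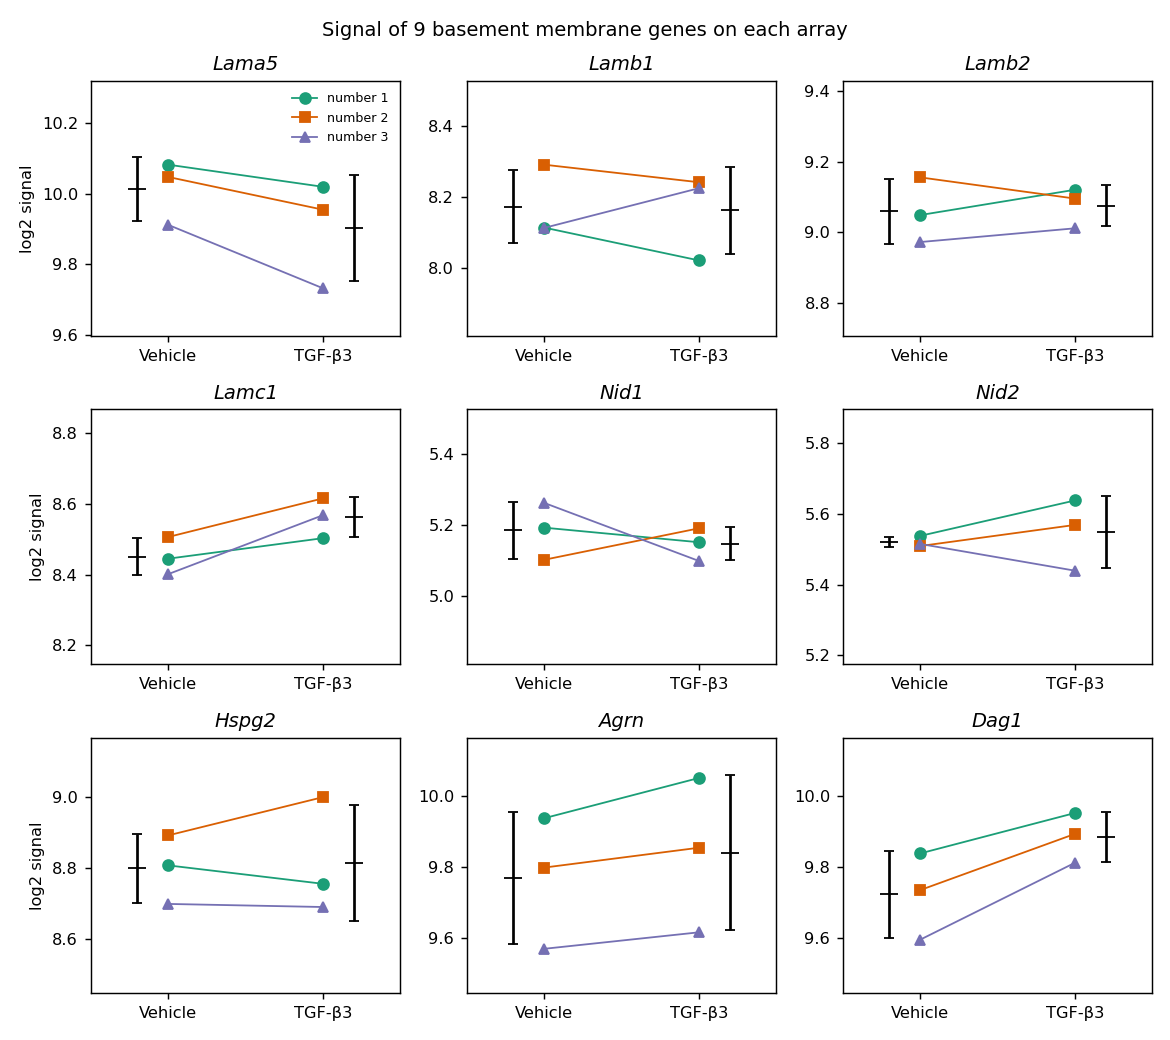
Log2 signal of each gene on each array, with vehicle left and TGF-β3 right in every panel; lines join same-numbered arrays, and the bars beside them are the mean and SD of 3 arrays. Every panel spans the same number of log2 units; all 3 lines slope down for Lama5 and up for Lamc1, Agrn and Dag1, while the groups overlap in each panel.

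The alpha chain gene Lama5 was lower with TGF-β3 in each pair. Its protein is the alpha chain of the main laminins of adult epithelial basement membranes. The Lama5 signal was 10.08, 10.05 and 9.91 in vehicle samples 1, 2 and 3, and 10.02, 9.95 and 9.73 in TGF-β3 samples 1, 2 and 3. Both number 3 samples were the lowest of their group, and TGF-β3 1 lay above vehicle 3, so the groups overlapped. The difference for Lama5 was -0.11 (SE 0.10, 95% interval -0.33 to 0.11, adjusted p = 0.691 in limma), and the pairs differed by -0.06, -0.09 and -0.18. The sign was the same under all 15 alternatives, between -0.17 and -0.03, with -0.14 after quantile normalization. Some of the alternatives change only the test and cannot alter a difference. Of the 82 Lama5 probe sets, 12 (14.6%) were higher with TGF-β3, against 56.4% of all probe sets. These probe sets read 1 transcript pool in the same 6 samples and are not replicates.

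The beta chain genes Lamb1 and Lamb2 showed no common direction among pairs. Their products are alternative partners in the laminin trimer, and Lamb2 is known for its roles at the neuromuscular synapse and the kidney filter. Lamb1 signals were 8.11, 8.29 and 8.11 in vehicle samples 1 to 3 and 8.02, 8.24 and 8.22 in the TGF-β3 samples. The samples numbered 2 were the highest of both groups, and only pair 3 was higher with TGF-β3. The Lamb1 difference was -0.01 (SE 0.09, 95% interval -0.22 to 0.20, adjusted p = 0.968). Lamb2 signals were 9.05, 9.16 and 8.97 in vehicle and 9.12, 9.10 and 9.01 with TGF-β3. The TGF-β3 values of Lamb2 all lay within the range of the vehicle values, with a difference of 0.02 (SE 0.08, 95% interval -0.17 to 0.21, adjusted p = 0.937). Both differences were close to 0 and their signs turned under some alternatives, for Lamb2 also after quantile normalization (-0.03).

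The gamma chain gene Lamc1, whose product joins most laminin trimers and carries their nidogen-binding site, was slightly higher with TGF-β3 in each pair. Its signals were 8.45, 8.51 and 8.40 in vehicle samples 1 to 3 and 8.50, 8.62 and 8.57 in the TGF-β3 samples. The lowest TGF-β3 value fell just short of the highest vehicle value, so the groups overlapped by less than 0.01. The Lamc1 difference was 0.11 (SE 0.08, 95% interval -0.07 to 0.29, adjusted p = 0.684), with pairs at 0.06, 0.11 and 0.17. It was 0.06 after quantile normalization and turned to -0.05 with the brightest of its 28 probe sets alone. Of those probe sets 19 (67.9%) were higher, 9 of them in 3 of 3 pairs and 1 was lower in 3 of 3 pairs.

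Within the laminin trimer the gamma and alpha chain transcripts thus differed in opposite directions in every pair. The TGF-β3 minus vehicle difference of Lamc1 exceeded that of Lama5 by 0.12, 0.20 and 0.35 in pairs 1, 2 and 3, on average 0.22 ± 0.11 (SD, n = 3). The same excess of Lamc1 over Lamb1 was 0.15, 0.16 and 0.05, and over Lamb2 it was -0.01, 0.17 and 0.13. These contrasts were picked after the values were seen and are given without a test.

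The nidogen genes Nid1 and Nid2 had low signals and no common direction among pairs. Their products are short rod-like linkers between laminin and collagen IV. Nid1 signals were 5.19, 5.10 and 5.26 in vehicle and 5.15, 5.19 and 5.10 with TGF-β3. The lower quartile of all genes was 5.00 to 5.19 on these arrays, and 9 of the 19 Nid1 probe sets had a mean signal below the lower quartile of all probe sets. The groups overlapped and pair 2 ran against the other pairs, with a difference of -0.04 (SE 0.08, 95% interval -0.22 to 0.14, adjusted p = 0.84). The brightest Nid1 probe set alone gave -0.35 (SE 0.26). Nid2 signals were 5.54, 5.51 and 5.51 in vehicle and 5.64, 5.57 and 5.44 with TGF-β3. Vehicle samples lay within 0.03 of each other, while TGF-β3 samples lay on both sides of them. The Nid2 difference was 0.03 (SE 0.08, 95% interval -0.16 to 0.21, adjusted p = 0.89), and 8 of its 20 probe sets lay below that quartile. The background signal of the probes is not known here, so whether either gene was expressed cannot be read from these values.

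Perlecan, the product of Hspg2, is a large proteoglycan that binds laminin, nidogen and growth factors. Hspg2 signals were 8.81, 8.89 and 8.70 in vehicle samples 1 to 3 and 8.76, 9.00 and 8.69 in the TGF-β3 samples. The samples numbered 2 were highest and those numbered 3 lowest in both groups, whose ranges overlapped. The Hspg2 difference was 0.02 (SE 0.10, 95% interval -0.22 to 0.25, adjusted p = 0.953), with 1 of 3 pairs higher, and -0.03 after quantile normalization. Its 98 probe sets, the most of the 9 genes, differed by -0.37 to 0.90, and 48 of them were higher.

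Agrin, the product of Agrn, is a proteoglycan that links laminin to dystroglycan and organises the neuromuscular synapse. Agrn signals were 9.94, 9.80 and 9.57 in vehicle samples 1 to 3 and 10.05, 9.86 and 9.62 in the TGF-β3 samples. In both groups number 1 was highest and number 3 lowest, and the spread of 0.48 over the 6 arrays was the widest of the 9 genes. The Agrn difference was 0.07 (SE 0.13, 95% interval -0.22 to 0.37, adjusted p = 0.82), with pairs at 0.11, 0.06 and 0.05. It was 0.04 after quantile normalization, and it turned to -0.02 with the median probe set, -0.03 without vehicle 3 and -0.03 without TGF-β3 1. In limma's paired fit, with the numbers as a block, the Agrn SE was 0.07 and its adjusted p 0.615. Of the 39 Agrn probe sets, 27 (69.2%) were higher.

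Dystroglycan, the product of Dag1, is the laminin, agrin and perlecan receptor of the dystrophin complex. With the deposited values, Dag1 had the largest difference of the 9 genes. Its signals were 9.84, 9.74 and 9.60 in vehicle samples 1 to 3 and 9.95, 9.89 and 9.81 in the TGF-β3 samples. Of the 3 vehicle samples, only vehicle 1 reached into the TGF-β3 range, where it lay above TGF-β3 3. The Dag1 difference was 0.16 (SE 0.09, 95% interval -0.04 to 0.37, adjusted p = 0.684), or 1.12-fold, and the pairs differed by 0.11, 0.16 and 0.22. With the replicate block the Dag1 SE was 0.07 and its adjusted p 0.413; over the 15 alternatives the adjusted p ran from 0.266 to 0.994. The sign held under all 15 alternatives, between 0.06 and 0.22, though some of them cannot alter a difference. After quantile normalization Dag1 differed by 0.13, less in size than Lama5 at -0.14. All 6 Dag1 probe sets were higher and in 3 of them the groups did not overlap, where 5.53% of all probe sets were higher without overlap. With 6 probe sets against 19 to 98 for the other genes, the Dag1 value rests on the fewest.

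**Figure D2:**
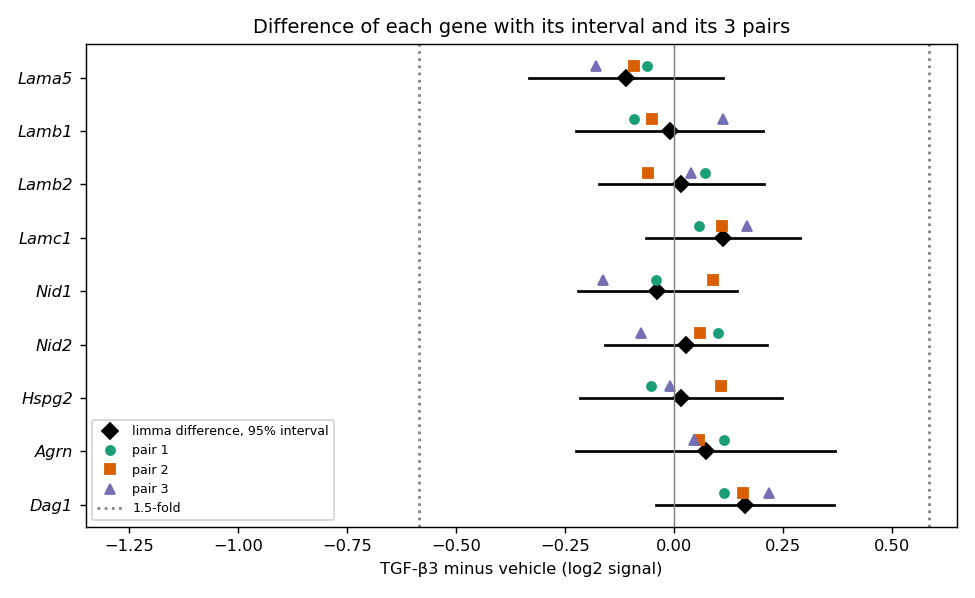
TGF-β3 minus vehicle difference of each gene in log2 signal (diamond) with its 95% interval from limma (bar) and the differences of the 3 pairs (coloured points above each bar). All intervals cross 0 and lie inside the dotted 1.5-fold lines.

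Of the 4 genes with the same sign in all 3 pairs, Lama5, Agrn and Dag1 have a start site in RefSeq's promoter table (GRCm38.p6), and the 250 bases before it are shown to set the gene that was lower beside those that were higher. Capitals mark CAGAC or GTCTG, a core of SMAD-binding sites read on both strands, and GGGCGG or CCGCCC, the GC box bound by Sp family factors. No CAGAC match overlapped a GC box.
Lama5, chr2:180225860-180226109, minus strand: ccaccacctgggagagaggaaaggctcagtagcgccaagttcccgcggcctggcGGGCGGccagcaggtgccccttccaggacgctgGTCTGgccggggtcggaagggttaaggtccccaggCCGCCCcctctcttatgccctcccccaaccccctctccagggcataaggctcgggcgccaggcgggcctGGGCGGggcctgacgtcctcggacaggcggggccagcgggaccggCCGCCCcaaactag
Agrn, chr4:156197489-156197738, minus strand: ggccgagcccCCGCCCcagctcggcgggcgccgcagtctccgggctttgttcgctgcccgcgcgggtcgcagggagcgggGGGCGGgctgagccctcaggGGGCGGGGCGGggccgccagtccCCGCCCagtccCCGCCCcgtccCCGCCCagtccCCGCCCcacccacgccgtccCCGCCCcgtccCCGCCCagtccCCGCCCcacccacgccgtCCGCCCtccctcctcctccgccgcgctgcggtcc
Dag1, chr9:108263959-108264208, minus strand: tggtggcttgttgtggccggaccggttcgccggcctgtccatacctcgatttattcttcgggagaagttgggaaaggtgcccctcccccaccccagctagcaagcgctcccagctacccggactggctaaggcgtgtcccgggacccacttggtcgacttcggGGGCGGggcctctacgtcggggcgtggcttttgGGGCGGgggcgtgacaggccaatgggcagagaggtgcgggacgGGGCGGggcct
The Lama5 window held 1 CAGAC match and 4 GC boxes, the Agrn window 12 GC boxes and the Dag1 window 3, and the Agrn and Dag1 windows held no CAGAC match. For Agrn and Dag1 the more upstream of their 2 listed starts is shown. In all, 7 of the 9 genes matched the table, with 9 windows of which those of Dag1 overlap. A GC box was in a window of 6 of the 7 genes and CAGAC in 3 of the 7, namely Lama5, Lamb1 and Lamb2. By window, 8 of the 9 held a GC box and 3 of the 9 held CAGAC. The windows with a GC box had 60.8% to 83.6% G and C, beside a median of 52.4% over all windows. Among all 32851 windows of this length, 32.7% held a GC box and 42.2% held CAGAC on either strand. The SMAD palindrome GTCTAGAC was in 0 of the 9 windows and in 0.2% of all windows. A match is a description of these letters only.

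In 6 of the 9 genes, the sample numbers took a larger part of the sum of squares of the 6 values than treatment did. The number's share, over 3 numbers against 2 groups, was 94.7% for Agrn, 90.1% for Hspg2, 78.5% for Lamb2, 77.1% for Lamb1, 72.1% for Lama5, 56.0% for Nid2, 46.5% for Dag1, 29.5% for Lamc1 and 6.5% for Nid1, beside a median of 46.6% over all genes. Treatment took 60.8% for Lamc1 and 50.1% for Dag1 but between 0.3% and 23.3% for the other 7 genes, beside a median of 20.2% over all genes. The 9 genes did not follow the numbers alike: number 1 samples were the highest of both groups for Agrn, Dag1, Lama5 and Nid2, and number 2 samples for Hspg2, Lamb1 and Lamc1. On the vehicle 3 array 8 of the 9 genes lay below their own mean, all but Nid1, with a median of -0.095. On the TGF-β3 3 array, with an SD of 1.73 across genes, 3 of the 9 lay above their own mean (median -0.068). The part of the lower signal of vehicle 3 for bright genes in these results was not tested. Without the vehicle 3 array Dag1 differed by 0.10, Lamc1 by 0.09 and Lama5 by -0.16.

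**Figure D3:**
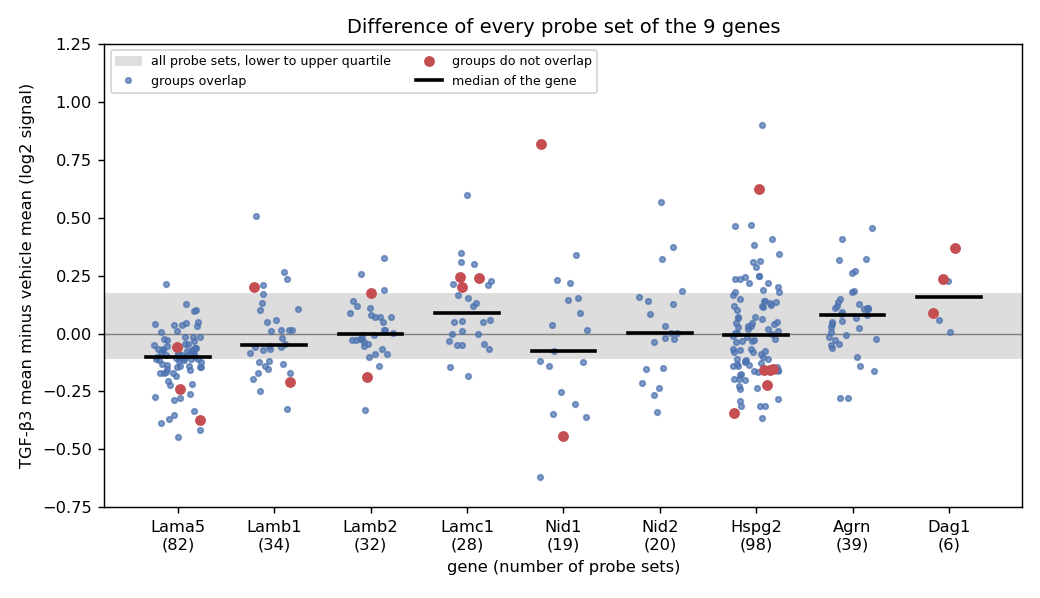
Difference of each of the 358 probe sets, 1 point each, in log2 signal (TGF-β3 mean minus vehicle mean), by gene; black lines are medians, red points have groups that do not overlap, and the grey band spans the lower to the upper quartile of all probe sets with 1 symbol. Lama5 points lie mostly below 0, all 6 Dag1 points above 0, and the other genes on both sides.

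At the level of probe sets, 8 of the 9 genes scattered on both sides of 0, and Dag1 lay above it. Over the 358 probe sets 45.5% were higher with TGF-β3, beside 56.4% of all probe sets. The groups did not overlap in 10 of them upward and 11 downward, which is 2.79% and 3.07%, where all probe sets gave 5.53% and 3.37%. The widest ranges were those of Hspg2 and of Nid1 (-0.62 to 0.82). In 3 of 3 pairs, Lama5 had 25 probe sets lower and 0 higher (30.5% and 0%) and Hspg2 had 15 lower and 7 higher (15.3% and 7.1%), beside 11.6% lower and 17.4% higher among all probe sets.

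The remaining laminin chain genes, which include chains of the hemidesmosomal laminin, gave no call. Of the 7 measured, 0 passed the test in either direction, 3 were higher and 4 lower, and their median difference was -0.10 (-0.10 after quantile normalization). Lamc3, a gamma chain gene, differed by -0.15 (SE 0.08, adjusted p = 0.684), and the alpha chain genes Lama1 and Lama2, the latter known from muscle, by -0.15 (SE 0.08) and -0.15 (SE 0.09). In these 3 the groups did not overlap. Vehicle 3 was the highest sample for each of them. Lama2 signals were low, 5.05 to 5.37, beside a lower quartile of all genes of 5.00 to 5.19. Of 25 other basement membrane components, 0 passed, 7 were higher and 18 lower, beside 52.8% of all genes higher. Their median difference was -0.04. The collagen IV chain gene Col4a2 differed by -0.20 (SE 0.08, unadjusted p = 0.04, adjusted p = 0.684 in limma) without overlap of the groups. Vehicle 3 was also the highest sample for Col4a2, at 5.99. Pxdn, the peroxidase that crosslinks collagen IV, differed by 0.20 (SE 0.10) and was higher in 3 of 3 pairs, and the matrix protein gene Frem1 by -0.16 (SE 0.09).

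Among the partners of laminin and dystroglycan, 0 genes of each list passed either. Of 16 genes of laminin receptors and related surface proteins, 10 were higher and 6 lower, beside 52.8% of all genes higher. Their median difference was 0.01, and -0.02 after quantile normalization. The integrin subunit gene Itga2 differed by 0.16 (SE 0.09) without overlap, with vehicle 3 its lowest sample at 8.95. The syndecan gene Sdc1 differed by 0.19 (SE 0.11). The integrin subunit gene Itga1 differed by -0.15 (SE 0.09), also without overlap. Itga1 signals, 4.68 to 5.00, lay below the lower quartile of all genes on each array, with vehicle 3 the highest. Of 11 genes of the dystrophin-glycoprotein complex 7 were higher and 4 lower (median 0.04). The sarcoglycan gene Sgcb, with signals of 8.11, 8.14 and 7.85 in vehicle and 8.25, 8.27 and 8.18 with TGF-β3, differed by 0.20 (SE 0.10). The syntrophin gene Sntb2 differed by 0.16 (SE 0.08), also without overlap of the groups, and the dystrobrevin gene Dtna by 0.17 (SE 0.09).

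The enzymes that build the laminin-binding glycan of dystroglycan had 10 of 13 genes higher and 3 lower, beside 52.8% of all genes higher. Their median difference was 0.10 (0.05 after quantile normalization). The mannosyltransferase gene Pomt1 differed by 0.17 (SE 0.08) without overlap, with vehicle 3 its lowest sample at 7.12. Dpm1, a subunit gene of the enzyme that makes the mannose donor, differed by -0.15 (SE 0.08), also without overlap, on 2 probe sets. Dpm1 signals were only 4.05 to 4.29, below the lower quartile of all genes on these arrays (5.00 to 5.19). Pomk, a kinase of the same pathway, differed by 0.16 (SE 0.09). Heparan sulfate synthesis genes, which serve perlecan and agrin, had 15 of 19 higher (median 0.06, and 0.02 after quantile normalization). The sulfatase gene Sulf1 differed by -0.24 (SE 0.11), the sulfotransferase gene Hs2st1 by 0.20 (SE 0.09) and the polymerase gene Ext2 by 0.14 (SE 0.08). Sulf1 signals were also low, 4.82 to 5.32, with vehicle 3 the highest. As a check of the treatment, 9 TGF-β target genes had 6 higher and 3 lower with a median of 0.06 and 0 calls. Those with the smallest p were Bambi, which encodes a pseudoreceptor, at -0.21 (SE 0.10), the integrin gene Itgb6 at 0.18 (SE 0.10) and the early response gene Klf10 at 0.19 (SE 0.18).

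**Figure D4:**
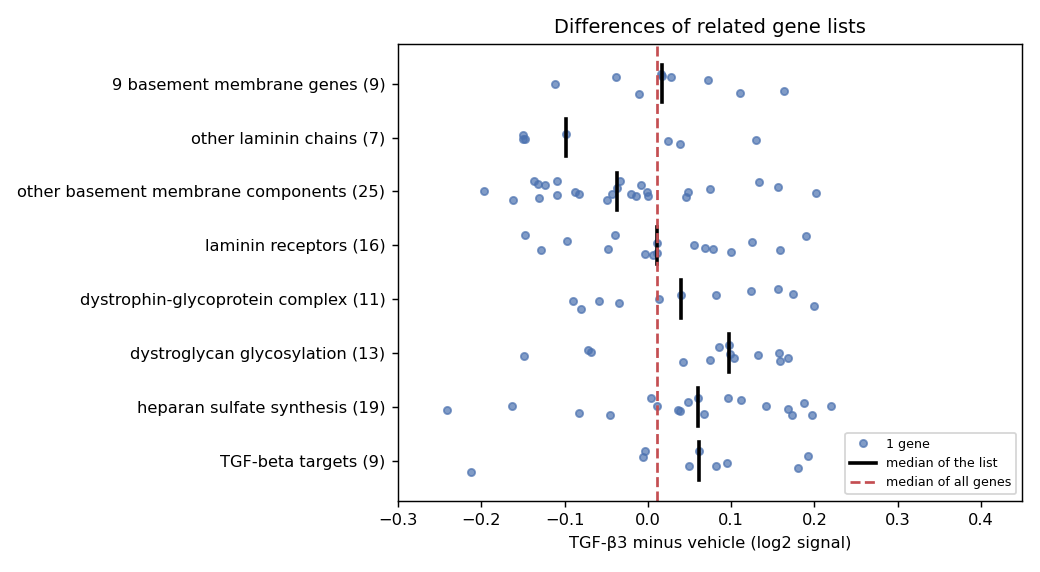
TGF-β3 minus vehicle difference in log2 signal of each gene (points) in the 9 genes and in 7 related lists, with the number of genes in brackets; black bars are list medians and the dashed line is the median of all genes. List medians lie between -0.10 and 0.10, and points of every list fall on both sides of 0.

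Among the 100 other genes of these lists, the closest array profile was sought for each of the 9 genes. The measure was the root mean square distance between the 6 array values, each gene centred on its own mean. For Dag1 it was Pomk at 0.03 (median distance over the 100 genes 0.14), for Lamc1 it was Sparc at 0.04 (0.12) and for Lama5 it was Fbln2 at 0.06 (0.16). Itgb1 lay closest to Lamb1 and Cd151 to Lamb2, both at 0.05. Among the 9 genes themselves, Lamb1 and Agrn lay farthest apart, at 0.22.

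**Figure D5:**
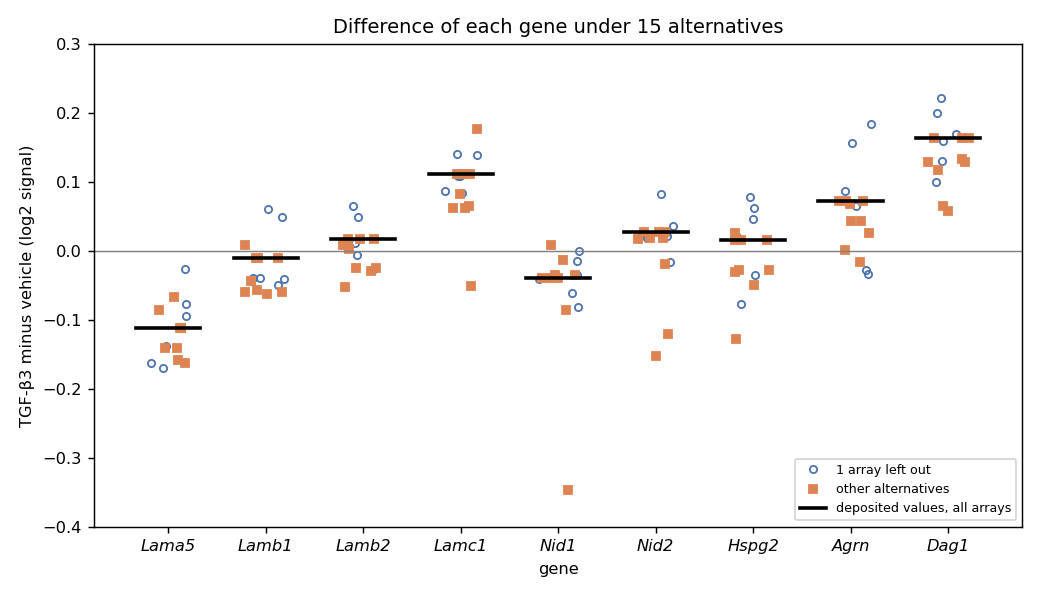
TGF-β3 minus vehicle difference of each gene in log2 signal with the deposited values of all 6 arrays (black bars), with 1 array left out (open circles) and under the other alternatives (squares). Lama5 stays below and Dag1 above 0 at every point, and each of the other genes has points on both sides.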

How the data were processed

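The Affymetrix mouse gene arrays (version 1.1, strips) were summarised by the authors with RMA and Affymetrix Power Tools, per the submitters' processing notes; no version is given in the sources used here. The deposited table holds log2 signals (2.96 to 13.07) of 241576 probe sets on 6 arrays. Here 213361 probe sets with 1 gene symbol in the platform's table were averaged per gene without a filter on signal, and 5107 with several symbols (2 of them shared by Nid2 with another symbol) and 23108 not listed were left out. Of 20893 symbols, 2354 were updated through synonyms (GRCm38.p6 table, names only). Groups came from sample titles.

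The 20848 genes were tested by limma (version 3.58.1, R 4.3.3) with eBayes moderation, no block and Benjamini-Hochberg adjustment at a threshold of 0.05. SE is the standard error of a difference. The number of arrays limits the precision. Samples are described as 3 experiments; p-values measure only the spread between them. Samples were taken as pairs by the number in their titles, and the labels state no block. Deviations from group means correlated at 0.622, 0.406 and 0.225 in pairs 1, 2 and 3. Between samples of unlike number the correlations were -0.492 to 0.171. The highest of these, vehicle 3 with TGF-β3 2, was close to the value of pair 3. No 2 arrays were duplicates (SD of differences over genes 0.115 to 0.327). The fit was tested on simulated data. Figures used Python 3.11.15 and matplotlib 3.10.9.

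The 9 genes and all lists were chosen with earlier results of these data known. Named list genes are the up to 3 with the smallest p, or those nearest in profile to 1 of the 9 genes. The alternatives were the replicate block, quantile normalization, both together, median centring, leaving out the 25% of genes of lowest mean signal, the median or brightest probe set, eBayes trend and robust options, array weights and leaving out each array.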

Additional observations from a re-analysis of the deposited data

How the results depend on the processing

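Across 15 alternatives, 0 of the 9 genes passed the threshold in any (lowest adjusted p 0.266). The sign of a difference held in 110 of 135 recomputed values. The 25 that turned included none of Lama5 or Dag1, and the cause was not tested. The replicate block, the eBayes options and leaving out the 25% of genes of lowest mean signal do not alter a difference. Signs could not turn in these. The block with quantile normalization likewise repeats the differences of quantile normalization alone. With the replicate block no call among the 9 genes changed: 0 passed, the median difference was 0.0168, and over all genes 2 passed against 0 without it (Ifit3b and Vmn1r-ps79, named after their values were seen, like those in the next sentence). With the replicate block and quantile normalization together 1 gene passed (Vmn1r-ps79), and leaving out single arrays gave 0 to 1, the 1 (Obox2) without vehicle 1. The median difference of the 9 genes ran from -0.0263 to 0.0785 with 1 array left out.

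After quantile normalization, with and without the replicate block, Lamb2 was at -0.0251 and Hspg2 at -0.0275. Median centring gave -0.0296 for Lamb2, -0.0184 for Nid2 and -0.0306 for Hspg2. Array weights gave -0.0521 for Lamb2, 0.0089 for Nid1 and -0.0495 for Hspg2. The median probe set gave 0.0086 for Lamb1, -0.1212 for Nid2 and -0.0166 for Agrn. The brightest probe set gave -0.0512 for Lamc1, -0.1529 for Nid2 and -0.1276 for Hspg2, and moved Nid1 from -0.0388 to -0.3461 without a change of sign. With 1 array left out the ranges were -0.0497 to 0.0607 for Lamb1, -0.0263 to 0.065 for Lamb2, -0.0165 to 0.0827 for Nid2, -0.0767 to 0.0785 for Hspg2 and -0.0334 to 0.1846 for Agrn. Detection calls were not used here, which limits what dim signals, such as those of the nidogens, Dpm1 and Itga1, can show.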
